A study of Mus musculus with 10 samples.

Results

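A set of 10 genes that mark endothelium, the cell layer lining blood vessels, was followed in RNA-seq read counts of embryonic mouse cortex: Pecam1, Cdh5, Kdr, Flt1, Tek, Tie1, Cldn5, Esam, Emcn and Eng. They were chosen by symbol as established endothelial markers, and all 10 were found among the 56748 gene identifiers counted and among the 18163 genes abundant enough to be tested. The study compared 5 libraries from Emx2 KO cortex with 5 from WT cortex, all from mouse embryos at E12.5, in mid-gestation. Emx2 encodes a homeodomain transcription factor of the dorsal telencephalon. The labels give the genotype, tissue and stage, and the series describes the material as dorsal telencephalon, but they do not give the allele, the sex, or whether each library came from a separate embryo. The p-values below therefore measure the spread between libraries, which may be partly technical.

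At this stage the cortical wall consists mainly of neural progenitors and young neurons, and vessels grow into it from a plexus on its outer surface. Endothelial sprouts follow VEGF made by neural cells, which signals through Kdr, while Flt1 binds VEGF and limits the signal. Angiopoietins act on Tek, whose relative Tie1 modulates it, and Eng is a co-receptor for BMP9 and BMP10. Cdh5, Pecam1, Esam and Cldn5 hold neighbouring endothelial cells together, and Emcn is a sialomucin of their surface, best known from veins and capillaries.

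Library totals ran from 9720840 to 35674113 counts, and each of the 10 genes had between 40 (Emcn) and 2532 (Kdr) counts in every library. Emx2 itself, the check of the labels, was at 94.6 to 146 CPM (read counts scaled to library size, with TMM factors) in the knockout and at 175 to 207 CPM in the wild type, without overlap. Its log2 fold change was -0.59 ± 0.11 (SE), with an edgeR adjusted p of 0.00271, so reads counted to the gene were reduced and not absent. Reads of its antisense partner Emx2os cannot be told apart from its own without the strand. Large libraries (3 knockout, 2 wild type) and small ones (2 knockout, 3 wild type) formed separate size classes. The codes ending the sample titles are not explained by the labels. Each code held both genotypes, but always 1 genotype in large and the other in small libraries. Library size could therefore not be told apart from genotype within a code.

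None of the 10 endothelial genes passed the test between knockout and wild type in the 5 against 5 comparison. By edgeR's quasi-likelihood test at an adjusted p under 0.05, 0 were lower and 0 higher, where 9.33% of all genes tested were lower and 12.9% higher. At an unadjusted p under 0.05, 4 were lower, Kdr, Tek, Pecam1 and Emcn, beside 15.5% of all genes, and DESeq2 and limma-voom called 0. The fitted log2 fold change was below 0 for 8 of the 10, with a median of -0.20 beside -0.01 over all genes. In no case did the 5 knockout libraries all lie on 1 side of the 5 wild-type libraries, which 16.7% of all genes did. In a bulk sample, fewer endothelial cells and less of a transcript per cell cannot be told apart.

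**Figure D1:**
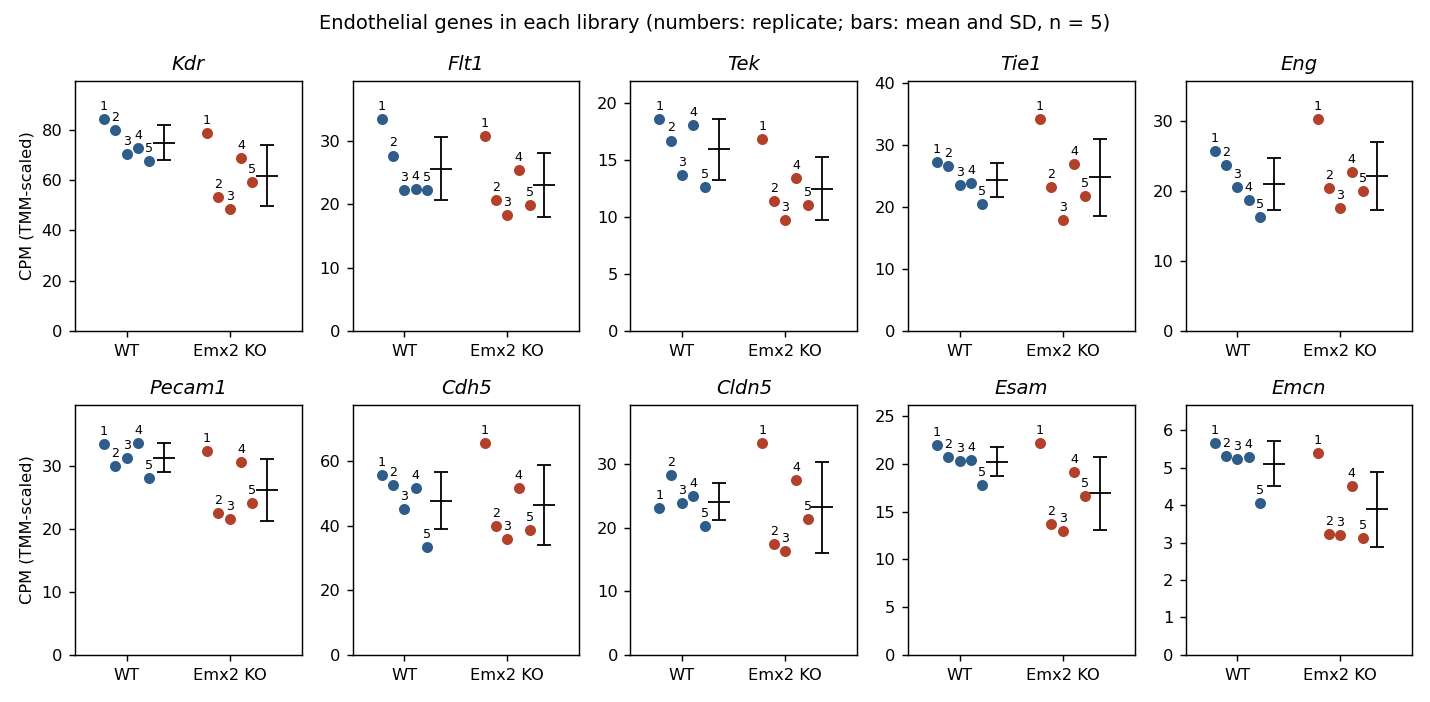
CPM of the 10 endothelial genes in each library, with the replicate number beside each point, wild type in blue and Emx2 knockout in red; bars give the mean and SD (n = 5 per genotype). Knockout replicate 1 was the highest knockout library for every gene, and the genotypes overlapped for every gene.

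Among the receptors, Kdr, the main signalling receptor for VEGF-A, stood at 78.6, 53.4, 48.6, 68.6 and 59.3 CPM in knockout libraries 1 to 5 and at 84.1, 79.7, 70.1, 72.8 and 67.4 CPM in wild-type libraries 1 to 5. Knockout libraries 2, 3 and 5 were below every wild-type library, while knockout 1 was exceeded only by wild type 1 and 2. The means were 61.7 ± 12.1 and 74.8 ± 6.90 CPM (SD, n = 5), a log2 fold change of -0.27 ± 0.12 (SE) with a 95% interval of -0.54 to -0.0047 and an edgeR adjusted p of 0.141. Flt1, which binds the same ligand with little signalling of its own, had knockout values of 30.7, 20.6, 18.3, 25.4 and 19.9 CPM against 33.4, 27.7, 22.2, 22.4 and 22.3 CPM. Knockout 2, 3 and 5 were again below all wild-type libraries, by a small margin, while knockout 4 was above 3 and knockout 1 above 4 of these. Its log2 fold change of -0.14 ± 0.16 gave an edgeR adjusted p of 0.602.

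Tek, the angiopoietin receptor also called Tie2, was at 16.8, 11.4, 9.73, 13.5 and 11.1 CPM in the knockout and at 18.6, 16.7, 13.7, 18.1 and 12.6 CPM in the wild type. The same 3 knockout libraries, 2, 3 and 5, were below all wild-type libraries, and knockout 4 exceeded only wild type 5. The log2 fold change was -0.34 ± 0.15 (95% interval -0.68 to -0.0082, edgeR adjusted p = 0.138). Its partner Tie1 showed no such pattern, with 34.2, 23.3, 17.9, 26.9 and 21.7 CPM in the knockout and 27.2, 26.7, 23.6, 24.0 and 20.4 CPM in the wild type. Knockout 1 was the highest and knockout 3 the lowest of all 10 libraries for Tie1. The log2 fold change was 0.03 ± 0.15 (edgeR adjusted p = 0.916), and its sign turned with the scaling, to -0.01 on total counts alone.

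Eng, the TGF-beta superfamily co-receptor, was at 30.2, 20.4, 17.5, 22.6 and 20.0 CPM in the knockout and at 25.7, 23.6, 20.6, 18.7 and 16.3 CPM in the wild type. It was the one receptor for which the lowest library was wild type, number 5, and the groups overlapped over most of their range. The log2 fold change of 0.09 ± 0.15 gave an edgeR adjusted p of 0.750, with a 95% interval of -0.25 to 0.43. By the GRCm38 annotation, Eng exons share 61 bases (1.5% of their length) with Fpgs on the opposite strand. The sources used here do not say whether counting used the strand.

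Of the adhesion and junction genes, Pecam1, a homophilic adhesion molecule, had 32.5, 22.5, 21.6, 30.6 and 24.1 CPM in the knockout and 33.5, 30.1, 31.3, 33.7 and 28.2 CPM in the wild type. Knockout 2, 3 and 5 were below every wild-type library, and knockout 1 and 4 were inside the wild-type range. The log2 fold change was -0.25 ± 0.11 (95% interval -0.50 to -0.0052, edgeR adjusted p = 0.140). Esam, a tight junction-associated immunoglobulin-family protein, gave 22.2, 13.7, 13.0, 19.1 and 16.6 CPM in the knockout against 22.0, 20.8, 20.3, 20.4 and 17.8 CPM in the wild type. The same 3 knockout libraries were below all wild-type libraries, and knockout 1 was above them all. Its log2 fold change was -0.25 ± 0.13 (edgeR adjusted p = 0.213).

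Cdh5, the VE-cadherin of adherens junctions, was at 65.7, 39.9, 35.8, 51.6 and 38.6 CPM in the knockout and at 55.8, 52.7, 45.2, 51.8 and 33.5 CPM in the wild type. Cldn5, the main claudin of brain endothelial tight junctions, was at 33.3, 17.4, 16.3, 27.6 and 21.4 CPM against 23.2, 28.3, 23.8, 25.0 and 20.2 CPM. For both, knockout 1 was the highest of all libraries, and the knockout range enclosed nearly all of the wild-type range. The log2 fold changes were -0.04 ± 0.19 for Cdh5 and -0.05 ± 0.19 for Cldn5, with edgeR adjusted p of 0.915 and 0.898. Their 95% intervals, -0.46 to 0.37 and -0.47 to 0.37, still held changes as large as those fitted for Tek or Emcn.

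Emcn, the least abundant of the 10, was at 5.38, 3.23, 3.19, 4.50 and 3.11 CPM in the knockout and at 5.66, 5.30, 5.23, 5.29 and 4.07 CPM in the wild type. Knockout 2, 3 and 5 formed a tight low set below all wild-type libraries, and knockout 4 was above only wild type 5. Emcn had the most negative fitted change of the 10 genes, -0.39 ± 0.18 on the log2 scale, from 5.11 ± 0.607 to 3.89 ± 1.01 CPM (SD, n = 5 each), and an edgeR adjusted p of 0.143.

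**Figure D2:**
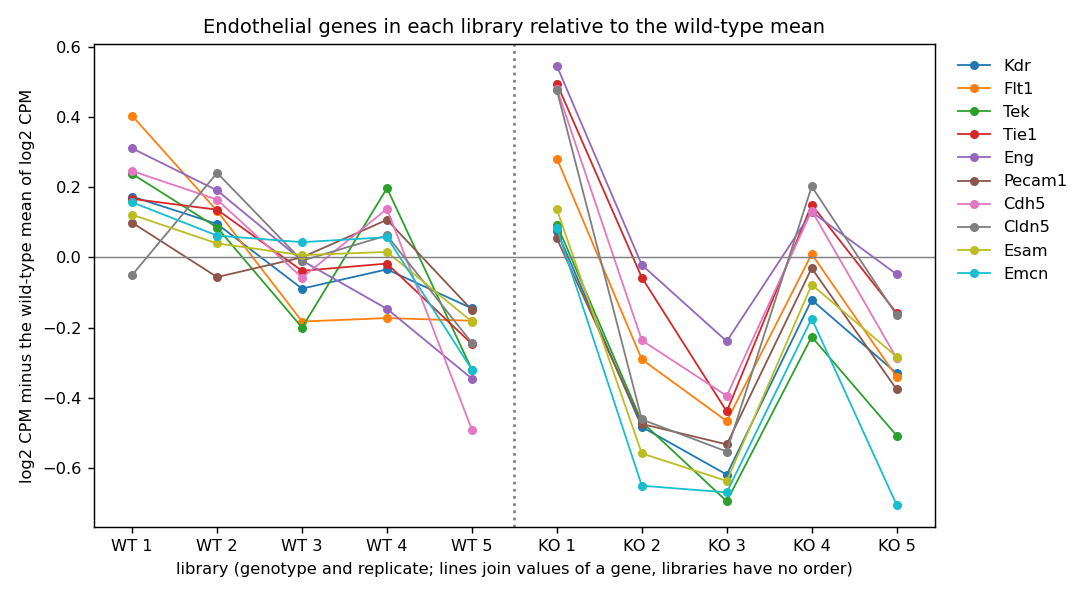
Log2 CPM of each endothelial gene in each library minus that gene's wild-type mean; lines join the values of 1 gene and libraries have no order. The genes follow one another from library to library, high in knockout 1 and low in knockout 2, 3 and 5.

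The 10 genes varied together from library to library. Over the 10 libraries, the Pearson r between 2 of the genes (log2 CPM, 45 pairs) ran from 0.501 to 0.976, the lowest for Pecam1 with Eng and the highest for Kdr with Esam. After each genotype's mean was subtracted the range was 0.728 to 0.968. Without the 2 libraries farthest from the median level, knockout 2 and 3, it was 0.412 to 0.956. All pairs share the same libraries and scaling, so these values describe the libraries and are not separate evidence.

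The shared level differed most within the knockout. Summed over the 10 genes, knockout libraries 1 to 5 had 349.5, 225.8, 201.9, 290.4 and 235.8 CPM, and wild-type libraries 1 to 5 had 329.1, 311.6, 276.1, 292.2 and 242.8 CPM. Knockout 1 was thus the highest library and knockout 3 the lowest, with the 5 wild-type libraries between them. Among the knockout libraries, 1 was the highest and 4 the next for all 10 genes, and 3 was the lowest for 9. Among the wild-type libraries, 5 was the lowest for 9 genes and 1 the highest for 8. For 6 genes, Kdr, Flt1, Tek, Pecam1, Esam and Emcn, knockout 2, 3 and 5 were all below every wild-type library, as were 11.1% of all genes tested. These 3 libraries were picked after their values had been seen.

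Leaving out knockout library 1 changed the outcome. That library was the highest knockout library for all 10 genes, so its removal lowers every fitted value. With the remaining 4 knockout libraries, 5 of the 10 genes were lower at an edgeR adjusted p under 0.05, where 9.61% of all genes tested were lower. They were Kdr (-0.38, adjusted p = 0.0193), Tek (-0.48, 0.0237), Emcn (-0.54, 0.0293), Pecam1 (-0.35, 0.0305) and Esam (-0.38, 0.0341), given as log2 fold changes with edgeR adjusted p. The other 5 also had fitted values below 0, from -0.27 for Flt1 to -0.06 for Eng, with edgeR adjusted p of 0.197 or more. The median over the 10 genes moved from -0.20 to -0.31. Leaving out any other single library gave 0 called. The 10 genes vary together across libraries, so the 5 calls are not separate evidence and do not compare directly with the share of all genes.

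**Figure D3:**
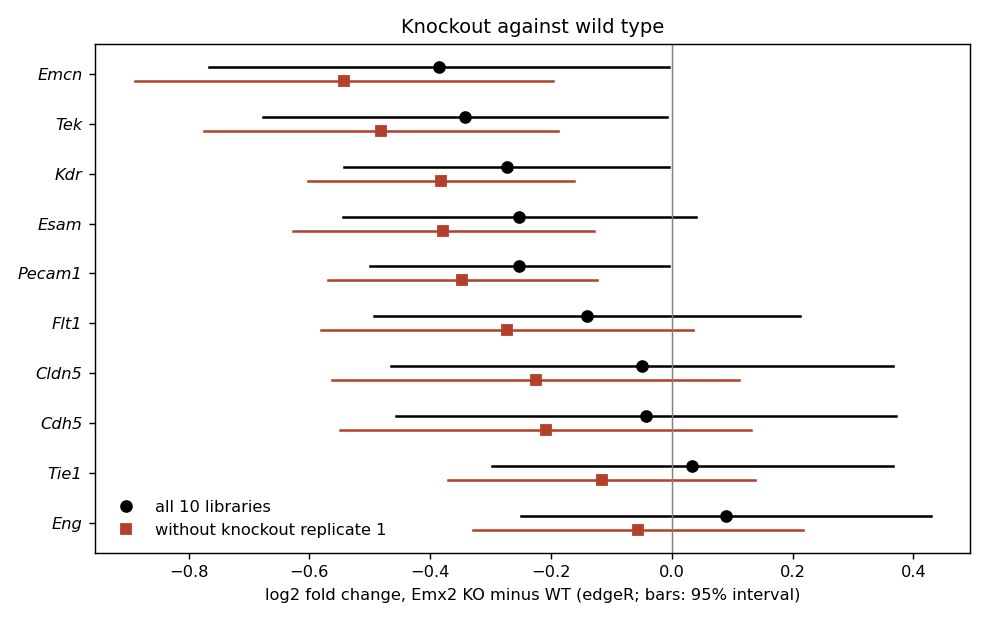
Log2 fold change (Emx2 knockout minus wild type) of each endothelial gene with its 95% interval from edgeR, with all 10 libraries in black and without knockout replicate 1 in red. Without it, the highest knockout library for every gene, every value is lower, and the intervals of Emcn, Tek, Kdr, Esam and Pecam1 lie below 0.

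Knockout 1 also had the most RNA of erythroid cells, 0.765% of its counts against 0.237% to 0.581% in the other 9 libraries. With the summed erythroid level as a covariate, all 10 genes had fitted values below 0 and 2 were called lower by edgeR, Kdr (-0.35, adjusted p = 0.0267) and Tek (-0.43, adjusted p = 0.0476), where 9.27% of all genes were lower. With summed Y-linked expression as the covariate the values moved the other way: 5 of the 10 genes were below 0, the median was -0.07, and 0 were called where 7.26% of all genes were lower. Tek was then at -0.16, Emcn at -0.26 and Cdh5 at 0.15 (edgeR adjusted p of 0.314, 0.318 and 0.454). Both the erythroid covariate and the fit with size class as a block without knockout 1 were chosen after the data had been seen. That block gave 5 called lower, the same genes as without knockout 1 alone, where 8.83% of all genes were.

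Within subsets of libraries few of the differences passed the test. Among small libraries (2 knockout, 3 wild type) all 10 genes had fitted values below 0, with a median of -0.43, and the groups did not overlap for 6, beside 40.2% of all genes. Among large ones (3 and 2) 5 were below 0 and the median was 0.00, and 0 were called in either class. Over all genes, edgeR called 291 lower and 335 higher of 17598 tested in small libraries. In large ones it called 1389 lower and 1907 higher of 20052. In the libraries of title code 14922 (2 and 2) all 10 were below 0 and 9 did not overlap, beside 57.5% of all genes. There 1 was called, Pecam1 (-0.51, edgeR adjusted p = 0.0264), where 3.68% of all genes were lower. In code 241022 (2 and 2), which holds knockout 1, 8 were below 0, 1 did not overlap beside 50.9% of all genes, and 0 were called. Of all 18580 genes tested in that code, 287 were lower and 243 higher by edgeR. The difference in effect between these codes, fitted as an interaction, gave edgeR adjusted p of 0.905 or more for each of the 10 genes. Over all genes tested in that fit, 1.64% passed. The knockout libraries were the large ones in code 241022 and the small ones in code 14922. The interaction therefore cannot be told apart from library size. The code 31022 has 1 library per genotype, and there the knockout library was above the wild-type library for all 10 genes, with no replicate check.

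Levels of different genes were compared per kilobase of exon (lengths from the GRCm38 annotation). In the wild type the order was Cldn5 (17.0 ± 2.08 CPM per kb, SD, n = 5), Cdh5 (11.4 ± 2.12), Kdr (8.29 ± 0.765), Esam (7.07 ± 0.533), Eng (5.18 ± 0.927), Pecam1 (5.03 ± 0.374), Tie1 (4.96 ± 0.553), Tek (3.38 ± 0.562), Flt1 (1.90 ± 0.366) and Emcn (0.945 ± 0.112). Cldn5 was above Cdh5, Tie1 above Tek, Tek above Flt1 and Flt1 above Emcn without overlap of their wild-type libraries. From Cdh5 down to Tie1, each neighbour in the order overlapped the next.

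Relative to one another, 3 of the genes stood apart between the genotypes. The log2 ratio of each gene to the mean of the other 9 in the same library cancels the scaling and whatever level the genes share. For Eng this ratio was -0.068 to 0.17 in the knockout and -0.40 to -0.074 in the wild type, the highest wild-type library lying just under the lowest knockout one, with a difference of means of 0.29. For Tie1 it was 0.14 to 0.39 in the knockout and 0.00 to 0.07 in the wild type, a difference of 0.21. Emcn went the other way, at -2.89 to -2.62 in the knockout and -2.53 to -2.36 in the wild type, a difference of -0.26. The genotypes did not overlap for these 3 genes, knockout 1 included, and overlapped for the other 7. Over all genes tested, the ratio to the mean of the 10 separated the genotypes for 4.48%, but for genes of other cells that ratio carries all the variation in the endothelial level, so the shares are not of like kind.

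The ratios were examined after the data had been seen and are a description with no test. The 10 ratios are bound to each other, since what 1 gene gains the others lose. When all libraries were instead scaled to the 10 genes and edgeR was refitted over all genes, 0 of the 10 passed, where 10.2% of all genes did. The smallest unadjusted p among them was 0.179, for Eng, at 0.26 ± 0.19 (edgeR adjusted p = 0.453). This scaling puts the variation of the endothelial level into all other genes, from which the test draws part of its spread estimate. The SE of the 10 genes was then 0.19 to 0.25, so this fit could not decide whether their ratios differ. The share of 10.2% carries that variation too.

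**Figure D4:**
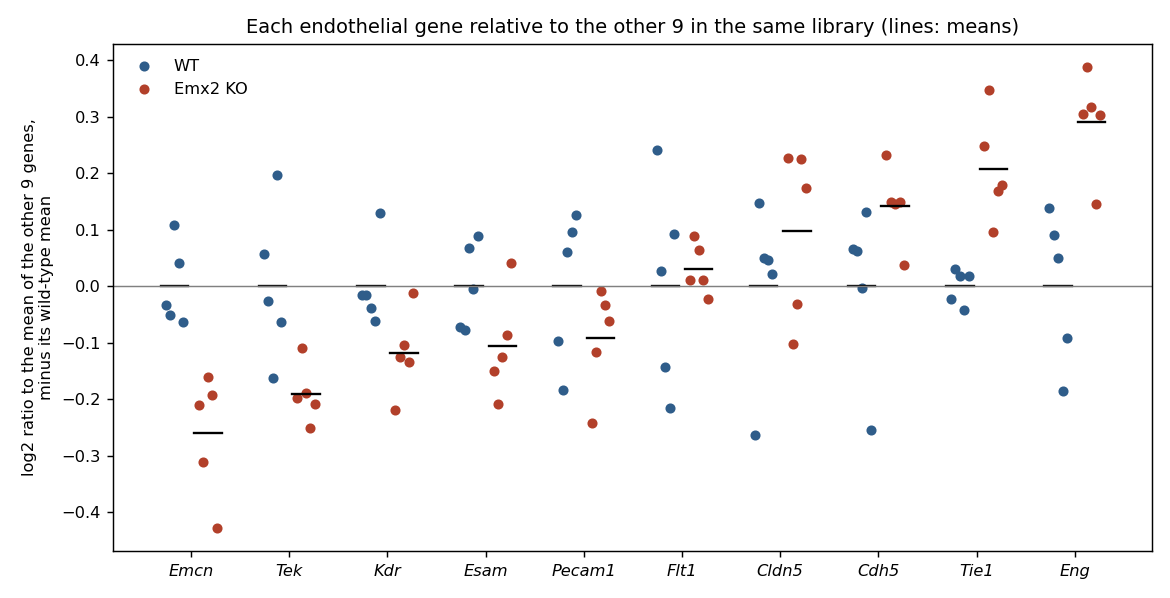
Log2 ratio of each endothelial gene to the mean of the other 9 in the same library, minus its wild-type mean; each point is 1 library (wild type blue, Emx2 knockout red) and black lines are means. Emcn in the knockout lies below, and Tie1 and Eng lie above, all wild-type libraries.

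Promoter windows, 250 bases before to 50 after the annotated start, were taken from RefSeq (GRCm38.p6) for 7 of the 10 genes. Pecam1, Cdh5 and Esam were not in the table. The windows of Tie1, Eng and Emcn are shown because their ratios to the other genes did not overlap between the genotypes, and that of Cldn5 because it stood apart in sequence. Each is written 5′ to 3′ on the strand of the gene, and capitals mark GGAA, the core that ETS-family factors such as Erg and Fli1 recognise, or its reverse complement TTCC.
Tie1, chr4:118489800-118490099, minus strand: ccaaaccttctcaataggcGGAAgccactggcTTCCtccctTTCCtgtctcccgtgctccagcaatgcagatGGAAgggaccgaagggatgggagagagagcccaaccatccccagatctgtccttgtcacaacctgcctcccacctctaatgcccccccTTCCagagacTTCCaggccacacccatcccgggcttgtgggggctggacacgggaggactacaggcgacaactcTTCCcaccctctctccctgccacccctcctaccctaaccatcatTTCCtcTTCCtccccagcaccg
Eng, chr2:32646345-32646644, plus strand: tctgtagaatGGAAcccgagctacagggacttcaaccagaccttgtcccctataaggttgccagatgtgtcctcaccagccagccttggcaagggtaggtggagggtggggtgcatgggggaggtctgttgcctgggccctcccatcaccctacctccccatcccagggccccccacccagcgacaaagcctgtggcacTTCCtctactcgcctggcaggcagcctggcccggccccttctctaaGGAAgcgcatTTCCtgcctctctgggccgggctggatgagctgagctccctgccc
Emcn, chr3:137340828-137341127, plus strand: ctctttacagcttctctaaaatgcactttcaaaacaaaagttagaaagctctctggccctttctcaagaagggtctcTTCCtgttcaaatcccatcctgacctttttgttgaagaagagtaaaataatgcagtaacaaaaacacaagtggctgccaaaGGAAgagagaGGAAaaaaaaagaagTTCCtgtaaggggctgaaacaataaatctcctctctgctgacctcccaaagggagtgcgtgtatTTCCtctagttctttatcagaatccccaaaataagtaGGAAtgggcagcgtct
Cldn5, chr16:18776597-18776896, plus strand: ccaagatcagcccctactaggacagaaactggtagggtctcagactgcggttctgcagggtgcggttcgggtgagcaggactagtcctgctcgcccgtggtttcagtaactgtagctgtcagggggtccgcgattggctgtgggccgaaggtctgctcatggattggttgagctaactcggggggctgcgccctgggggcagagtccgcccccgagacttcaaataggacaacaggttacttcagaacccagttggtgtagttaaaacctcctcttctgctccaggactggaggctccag

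GGAA on either strand occurred 9 times in the Tie1 window, 6 times in that of Emcn, 4 times in that of Eng and 0 times in that of Cldn5. Kdr had 5, Flt1 had 4 and Tek had 2. Of all 32851 windows in the table, 95.98% held GGAA at least once, with a median of 3 per window, so its presence is common and Cldn5 is among the few windows without it. The longer ETS motif ACAGGAA, which contains GGAA, was found once in Tie1 and on 2 occasions in Emcn, and in 8.67% of all windows. CCGGAAG, another that contains it, was in none of the 7 and in 8.86% of all. The motif GATAAG was found in Tek alone of the 7 and in 7.44% of all windows. The letters TATAAA were found in Flt1 alone and in 13.62% of all. A match says only that the letters are present in the window.

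Other genes followed the level of the 10 closely across libraries. Ranked by Pearson r with the mean log2 CPM of the 10 over the 10 libraries, the first 8 were Nid1 (0.973), Rcsd1 (0.971), Itga11 (0.967), Sox17 (0.967), Egfl7 (0.966), Gimap6 (0.964), Lamc3 (0.964) and Cyyr1 (0.964). Nid1 encodes the basement membrane protein nidogen, Sox17 an endothelial transcription factor and Egfl7 a secreted endothelial factor. None was called by edgeR in all 10 libraries, with log2 fold changes from -0.43 for Lamc3 to -0.09 for Sox17. These 8 were picked from 14171 ranked genes for following the 10 in the same libraries, so their lack of calls is not separate evidence. Of 25 other endothelial genes, 0 were called by edgeR, and their median log2 fold change was -0.18. Over all genes tested, 9.33% were lower and 12.9% higher. Without knockout 1 Cd34, Clec14a and Calcrl were lower, where 9.61% of all genes were. With all libraries, the smallest p among the 25 was that of Calcrl, the receptor subunit for adrenomedullin. Its log2 fold change was -0.68, with an edgeR adjusted p of 0.0570.

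Some ligands of the families that act on these receptors passed the test. Of 13 ligands of the VEGF, angiopoietin, TGF-beta and BMP families, 10 were abundant enough to test. By edgeR 3 were lower and 1 higher, where 9.33% of all genes tested were lower and 12.9% higher. Angpt1, the agonist of Tek, was at 8.53, 7.10, 5.49, 6.10 and 6.44 CPM in the knockout and at 14.2, 14.7, 12.9, 17.0 and 10.5 CPM in the wild type. All 5 knockout libraries were below all wild-type libraries, and the log2 fold change was -1.04 ± 0.14 (edgeR adjusted p = 0.000325). Vegfc, a ligand of Kdr and of the lymphatic receptor Flt4, fell from 11.1 ± 1.18 to 6.56 ± 0.991 CPM (SD, n = 5 each), also without overlap, with a log2 fold change of -0.74 ± 0.12 (edgeR adjusted p = 0.000826). Tgfb2, a TGF-beta isoform, fell by less and its groups overlapped, with a log2 fold change of -0.32 ± 0.09 (edgeR adjusted p = 0.0210).

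Vegfb, a ligand of Flt1, was higher in the knockout, with a log2 fold change of 0.24 ± 0.08 (edgeR adjusted p = 0.0451). Its groups overlapped, and the call was lost without knockout 1 (edgeR adjusted p = 0.0613). Vegfa, the principal ligand of Kdr, was at 128 ± 19.2 CPM in wild-type and 122 ± 4.36 CPM in knockout libraries. The fitted difference was -0.07 ± 0.09 on the log2 scale (edgeR adjusted p = 0.621). The remaining tested ligands had edgeR adjusted p from 0.211 for Vegfd (log2 fold change -0.62) through Tgfb1 (0.23, adjusted p = 0.477), Pgf (-0.29, 0.481) and Angpt2 (0.11, 0.800) to Tgfb3 (-0.02, 0.953). Angpt4, Gdf2 and Bmp10 were too low to test, Gdf2 and Bmp10 being the BMP ligands of Eng, with at most 1 count in any library.

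**Figure D5:**
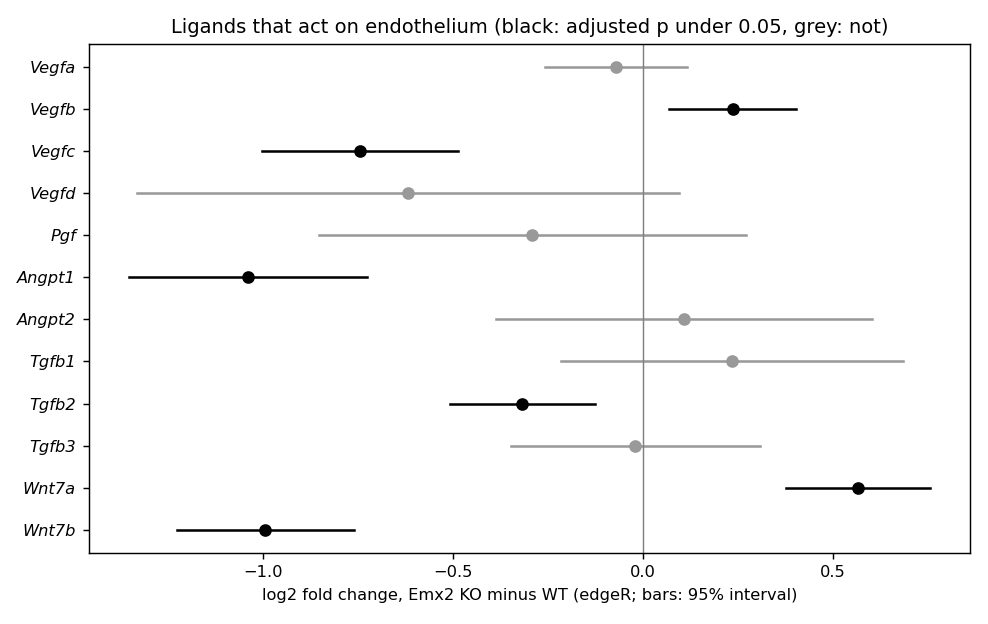
Log2 fold change (Emx2 knockout minus wild type) with 95% interval from edgeR for tested ligands of the VEGF, angiopoietin and TGF-beta families and for Wnt7a and Wnt7b; black marks an adjusted p under 0.05 and grey the rest. Angpt1, Vegfc and Wnt7b lie furthest below 0.

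Neural cells make Wnt7a and Wnt7b, which drive vessel ingrowth and barrier genes in brain endothelium. Wnt7b was lower, at 76.5 ± 11.8 CPM in knockout and 153 ± 15.0 CPM in wild-type libraries, with a log2 difference of -0.99 ± 0.11 (adjusted p by edgeR 0.000100). Wnt7a was higher, at 51.2 ± 2.86 CPM beside 34.4 ± 4.90 CPM, with a log2 difference of 0.57 ± 0.09 (adjusted p by edgeR 0.000683). Of 26 genes of brain endothelium and its barrier, which include both, 6 were lower and 2 higher by edgeR. Over all genes tested, 9.33% were lower and 12.9% higher. The median log2 fold change of the 26 was -0.16. Besides Wnt7b, those lower were Slco1c1 (-1.29, edgeR adjusted p = 0.00423), a thyroid hormone transporter, Apcdd1 (-1.14), a Wnt inhibitor, Tspan12 (-0.49), a co-receptor for Norrin at Fzd4, Slc16a1 (-0.26), a monocarboxylate transporter, and Lrp6 (-0.13). Besides Wnt7a, Slc7a5 (0.37), an amino acid transporter, was higher. The groups overlapped for Slco1c1, which had at most 85 counts in a library, and for Slc16a1, Lrp6 and Slc7a5. Without knockout 1 the call of Lrp6 was lost (edgeR adjusted p = 0.0632). In that fit 7 of the 26 were lower and 2 higher, where 9.61% of all genes were lower and 2198 of 17439 higher. Slc2a1, the glucose transporter of the barrier, was not called at -0.21 (edgeR adjusted p = 0.234), nor was Mfsd2a, its lipid transporter, at -0.14 (0.183). The Pearson r with the mean of the 10 endothelial genes ran from -0.343 (Wnt7a) to 0.636 (Slc16a1) among the called genes. Slco1c1 was too low for this ranking. For Slc2a1 it was 0.907 and for Mfsd2a -0.403. The list is not limited to endothelial expression, since neural cells make Wnt7a and Wnt7b.

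Intracellular and surface partners showed no single direction. Over all genes tested, 9.33% were lower and 12.9% higher by edgeR, and 9.61% were lower without knockout 1. In the fit without knockout 1, 2198 of 17439 genes were higher. Of 18 partners of the receptors, 3 were lower by edgeR, Smad9 (log2 fold change -1.35), Nrp1 (-0.32) and Bmpr2 (-0.19), and 4 were higher, Shb (0.67), Notch1 (0.61), Nrp2 (0.40) and Smad1 (0.26). Nrp1 and Nrp2 are co-receptors for VEGF family ligands. Without knockout 1, Nrp1 (edgeR adjusted p = 0.0834) and Bmpr2 (0.0509) were no longer called, which left 1 lower, and 5 were higher. Of 16 junction partners of Cdh5, Cldn5 and Esam, 2 were lower, F11r (-0.46) and Jam3 (-0.39), and 2 were higher, Jup (0.53) and Magi1 (0.32). Without knockout 1, 5 were lower, with 3 added that had not been called before. Of 19 tested transcription factors of endothelium, 3 were lower, Hey2 (-2.33, edgeR adjusted p = 6.30e-06), Hey1 (-0.89) and Lmo2 (-1.05). Erg (-0.24), Fli1 (-0.35) and Sox17 (-0.09) were not called. Without knockout 1, 4 of the factors were lower, with Fli1 added (-0.52, edgeR adjusted p = 0.0128), and Erg and Sox17 were still not called. Hey2, Hey1 and Lmo2 followed the 10 genes loosely (r of 0.429, 0.350 and 0.588 over 10 libraries). Many genes in these lists are also made by neural cells. Of 10 tested tip cell genes, 1 was lower, Cxcr4 (-1.02). Without knockout 1, 2 tip cell genes were lower, with Apln added (-0.26, edgeR adjusted p = 0.0180). Of 9 arterial genes Hey1 and Vegfc were lower and Efnb2 higher, and of 5 venous genes Nrp2 was higher, with the same counts without knockout 1.

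Markers of cells that surround or fill the vessels were also examined. Over all genes tested, 9.33% were lower and 12.9% higher by edgeR. Pericyte markers (17 tested, 2 lower and 0 higher by edgeR, Mcam at -0.81 and Rgs5 at -0.49) summed to 308.6 to 463.0 CPM in the knockout and 389.6 to 433.4 CPM in the wild type. Microglia markers (16 tested, 1 lower, Mrc1 at -0.69) summed to 70.7 to 109 and 85.2 to 115 CPM, and meningeal markers (15 tested, of which Ogn, Aldh1a2, Pdgfra and Dcn were lower) to 727 to 977 and 729 to 993 CPM. Erythroid markers (15 tested, 1 higher, Gata1) summed to 2430 to 7759 and 2347 to 5744 CPM, and megakaryocyte markers (7 tested, 0 called) to 14.2 to 21.7 and 13.1 to 20.8 CPM. For each of these 5 lists knockout 1 had the highest sum among the knockout libraries, as it did for the 10 endothelial genes. Without it, in the fit that called 5 of the 10 endothelial genes lower, 9.61% of all genes tested were lower. In that fit 4 pericyte, 3 microglia and 6 meningeal markers were lower. Hypoxia genes went from 2 lower and 1 higher to 4 lower and 0 higher, where 2198 of 17439 genes were higher. Of lists for other tissues and states, 9 of 12 choroid plexus genes were lower. Of 10 cortical genes 1 was lower, Emx2 itself, the gene knocked out, and 7 were higher. Of 14 tested hypoxia genes Pdk1 and Pgk1 were lower and Ankrd37 higher. Of 4 tested surface epithelium genes Krt18 was lower. The 7 genes of that list summed to 2.84 to 8.74 CPM in the knockout and 6.83 to 11.3 CPM in the wild type. Krt5 alone of that list was at 0 counts in every library. The part of pericytes, microglia, meninges and megakaryocytes in the endothelial values was not tested.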

How the data were processed

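RNA-seq was made from total RNA of mouse cortex in 10 libraries, 5 Emx2 KO and 5 WT per the labels. The deposited values are raw read counts per Ensembl gene, not normalized. Per the submitters' processing notes, bcl2fastq 2.20, STAR 2.7.8a and featureCounts 1.6.3-p1 were used, and GRCm39 and rn6 are the builds named. Parameters, strand setting and annotation release are not given in the sources used here.

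Symbols were matched for 52073 of 56748 identifiers. With edgeR 4.0.16 in R 4.3.3, low genes were removed by filterByExpr (minimum count 10), libraries were scaled by TMM, and the robust quasi-likelihood test was applied, two-sided, with genotype as the only term, Benjamini-Hochberg adjustment over all 18163 genes and a threshold of 0.05. CPM and correlations were computed from the deposited counts. Values of the 10 genes were log2 CPM with no offset. For genes set against the mean of the 10, 0.5 was added to the CPM before the log. DESeq2 1.42.0 and limma 3.58.1 (voom) were alternatives, beside other scalings, filters, blocks and subsets. Replicate pairs differed beyond sampling noise (chi-square per gene 8.29 to 21.3 over 20 pairs), so none was merged. Exon lengths came from a GRCm38 annotation, another build than the counts, so no gene coordinates in the build of the counts are given. Promoter windows and their printed coordinates came from RefSeq on GRCm38.p6.

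The members, the 18 other gene lists (251 of 253 genes matched, and 2 further genes are not reported here) and the tests were chosen with earlier results of these data known. Named were the 10 genes, Emx2, the receptors' ligands, the 8 genes most alike across libraries (mean of at least 2 CPM), and from each other list up to 4 genes past the threshold with the smallest p, or 1 where none passed. Other genes named were picked after values were seen, Slc2a1, Mfsd2a, Erg, Fli1 and Krt5 for their known roles and the rest to complete a count.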

Additional observations from a re-analysis of the deposited data

Results flagged for a closer look

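Of 138 groups of 5 libraries examined by Dixon's test, 4 had 1 library standing apart from the other 4, and chance gives about 1 in 20. Emcn in wild-type library 5 was at 4.07 CPM, below the next lowest at 5.23 CPM, with a gap of 0.731 of the group's range. Vegfb was highest in knockout library 3, at 38.4 CPM against 36.2 CPM in the next library (gap 0.713 of the range). Pdk1, a kinase induced by low oxygen, was highest among the knockout libraries in library 1, at 70.3 CPM against 57.2 CPM (gap 0.755). Gp9, a platelet glycoprotein, was lowest in knockout library 2, at 0.372 CPM against 0.859 CPM (gap 0.731).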

How the results depend on the processing

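The count of endothelial genes called higher was 0 under every alternative run. The count called lower, 0 with all libraries, was 0 under the other scalings, filters and tools, single blocks, the Y-linked covariate and the stricter threshold. It was 1 in title code 14922 alone, 2 with the erythroid covariate and 5 with size class as a block and knockout 1 left out, and leaving out 1 library at a time it ran from 0 to 5, the 5 being without knockout 1. Genes without overlap, 0 in all libraries, were 6 in small libraries, 1 in code 241022 and 9 in code 14922, where groups hold 2 or 3 libraries. Over 27 alternatives the log2 fold change was below 0 in all for Pecam1 (-0.51 to -0.17), Kdr (-0.52 to -0.10), Tek (-0.62 to -0.16), Esam (-0.46 to -0.15) and Emcn (-0.74 to -0.26). It was below 0 in 25 for Flt1, 22 for Cldn5, 21 for Cdh5, 9 for Tie1 and 5 for Eng. The cause of these moves was not tested beyond the alternatives named. Emcn, with as few as 40 counts in a library, was the least precisely counted. Replicate numbers do not pair the genotypes in the labels. With title code as a block, which matches the genotypes by code, 0 genes were called and 8 were below 0, with a median of -0.20.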
